A study of Mus musculus with 20 samples.

Results

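S100 proteins are small calcium-binding proteins of the EF-hand family, and their transcripts were followed here in the kidneys of mice with and without the telomerase gene Tert. 9 S100 genes were chosen by name from the 19940 genes of the table: S100a1, S100a4, S100a6, S100a8, S100a9, S100a10, S100a11, S100a13 and S100a16. No threshold was set on their values, but their levels in the 4 groups were known when the list was drawn up, so the counts of changed genes over the 9 are a description of this list. All 9 passed the filter on low values, a normalized count of 10 or more in at least 5 libraries. A normalized count is the number of reads of a gene divided by 1 size factor per library.

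Kidney RNA of 20 male mice was sequenced from the 3′ ends of polyadenylated transcripts, with 1 library per mouse and 5 mice in each of 4 groups. The groups were G3 Tert-/- mice at 47 weeks (old), Tert+/+ mice at 47 weeks, G3 Tert-/- mice at 7 weeks (young) and Tert+/+ mice at 7 weeks. The catalytic subunit of telomerase is the product of Tert, and G3 denotes generation 3 of mice bred without it, in which telomeres are short. The series asks how short telomeres bear on fibrosis of the kidney and on epithelial-to-mesenchymal transition, and the labels of these libraries name no treatment beyond genotype and age. The libraries came from kidney tissue of mixed cells, so for every gene below fewer cells of a type and less RNA per cell cannot be told apart.

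On binding calcium, most S100 proteins open a hydrophobic surface that grips a partner protein, among them annexins, myosin and the calcyclin-binding protein. S100A8 and S100A9 pair to form calprotectin, a major protein of the neutrophil cytosol that is also made by monocytes, and outside the cell it signals through the receptors TLR4 and RAGE (the product of Ager). S100A4, also called fibroblast-specific protein, has been used as a marker of cells in epithelial-to-mesenchymal transition in the kidney and is made by leukocytes as well.

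Tert was read at 5.11 to 8.31 normalized counts in old G3 Tert-/- kidneys, against 7.25 to 16.9 in old Tert+/+ kidneys. In young mice it was 0.979 to 5.65 in G3 Tert-/- kidneys, against 4.21 to 15.7 in Tert+/+ kidneys. The ranges overlapped at both ages, and the labels do not give which part of the gene is deleted, so a 3′ read may lie outside it and is no check of the genotype. Each library held between 7161690 and 9757594 reads of genes. The old Tert+/+ replicate 4 and the young Tert+/+ replicate 1 stood apart: the SD of the departures of 7252 genes from their medians was 0.51 and 0.63 log2 there, against 0.19 to 0.40 in the other 18 libraries. All 10 listed proximal tubule genes were read in the table and tested, with a summed count of 161832 to 441408 per library.

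All 9 genes lie on mouse chromosome 3, in GENCODE release M21 on GRCm38. 7 of them stand in a cluster of 184.688 kb between positions 90511034 and 90695721, which runs from S100a1 to S100a9. S100a11 (93520488 to 93526287) and S100a10 (93555080 to 93564643) lie 2.82 Mb away and 28.8 kb from each other. S100a8 (90668978 to 90670035, plus strand) and S100a9 (90692632 to 90695721, minus strand) point towards each other with 22.6 kb between their ends. S100a1 (minus strand) and S100a13 (plus strand) point away from each other, with annotated starts 43 bases apart.

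Promoter windows of 250 bases before and 50 after a gene's start were available in RefSeq (GRCm38.p6) for 8 of the 9 genes, all but S100a10. The windows of S100a8 (chr3:90668821-90669120, plus strand) and S100a9 (chr3:90695672-90695971, minus strand) are shown because the levels of these genes moved together, and capitals mark motif matches.
S100a8: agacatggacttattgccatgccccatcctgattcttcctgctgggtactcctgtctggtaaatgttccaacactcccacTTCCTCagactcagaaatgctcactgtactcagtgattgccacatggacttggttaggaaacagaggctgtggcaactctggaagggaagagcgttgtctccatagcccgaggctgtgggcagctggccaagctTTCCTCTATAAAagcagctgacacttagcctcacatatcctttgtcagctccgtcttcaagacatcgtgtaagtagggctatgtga
S100a9: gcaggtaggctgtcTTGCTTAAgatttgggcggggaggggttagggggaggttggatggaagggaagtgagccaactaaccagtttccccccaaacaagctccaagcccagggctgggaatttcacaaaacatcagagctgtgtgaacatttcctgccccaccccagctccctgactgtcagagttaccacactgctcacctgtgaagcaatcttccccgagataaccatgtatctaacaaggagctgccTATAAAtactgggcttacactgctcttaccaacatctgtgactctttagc
The window of S100a13 (chr3:90514185-90514484, plus strand) is shown because it also holds the start of S100a1, and capitals mark the 104 bases between the RefSeq starts of S100a1 and S100a13.
S100a13: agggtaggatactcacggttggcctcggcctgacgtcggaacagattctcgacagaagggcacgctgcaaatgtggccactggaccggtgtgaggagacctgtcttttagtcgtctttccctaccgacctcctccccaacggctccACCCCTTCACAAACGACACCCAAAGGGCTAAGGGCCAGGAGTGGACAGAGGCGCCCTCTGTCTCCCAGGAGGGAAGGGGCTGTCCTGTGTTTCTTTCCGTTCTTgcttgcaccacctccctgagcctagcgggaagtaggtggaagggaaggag
Motifs were searched on both strands. The letters TATAAA stood for the TATA box, and TTGCNNAA for a C/EBP site. The letters TGANTCA stood for an AP-1 site, and GAGGAA for an ETS site. In S100a8 a TATA box began 30 bases upstream of the start. ETS letters began 36 and 170 bases upstream, where the nearer match adjoins the TATA box. In S100a9 the TATA letters began at the annotated start itself and a C/EBP match began 236 bases upstream. Of 32851 windows of 300 bases, 13.6% held the TATA letters, 10.8% the C/EBP letters, 7.81% the AP-1 letters and 28.3% the ETS letters. Besides S100a8 and S100a9, only S100a4 of the 8 genes with a window had a TATA match, 31 bases upstream, with an ETS match 19 bases past the start. S100a11 had AP-1 matches 136 and 38 bases upstream and an ETS match 153 upstream. The 2 windows of S100a16 held an AP-1 match 192 and an ETS match 180 bases upstream, 1 in each. The S100a1, S100a6 and S100a13 windows held none of these letters, which says only that the letters are not in those windows.

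S100a9, the larger partner of calprotectin, was the member with the largest difference between groups. Its values were 64.4, 43.0, 21.8, 61.3 and 96.0 normalized counts in old G3 Tert-/- kidneys, against 20.9, 2.94, 6.59, 14.1 and 17.1 in young G3 Tert-/- kidneys. Every old G3 Tert-/- mouse was above every young G3 Tert-/- mouse, though the gap between 21.8 and 20.9 was small. These values stood for 21 reads in old replicate 3 and 23 reads in young replicate 1, so their order rested on the scaling. S100a9 rose with age in G3 Tert-/- kidneys, with means of 57.3 ± 27.5 in old and 12.3 ± 7.43 in young mice (SD, n = 5 each), a ratio of 4.64 and a log2 fold change of 2.22 (SE 0.49; limma adjusted p = 0.0153 over 14630 genes). The adjusted p was 0.0136 with edgeR and 0.000461 with DESeq2. Without old G3 Tert-/- replicate 5 or young G3 Tert-/- replicate 2 the call ended, at an adjusted p of 0.0570 in either case (limma; range 0.00781 to 0.0570 over 20 libraries left out in turn), with log2 fold changes of 2.0 and 1.84.

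In Tert+/+ kidneys S100a9 was read at 15.5, 11.8, 23.4, 21.4 and 10.01 normalized counts in old mice, against 18.7, 10.6, 6.85, 56.4 and 23.6 in young mice. These groups overlapped, and young replicate 4 lay far above the other 9 Tert+/+ mice. The age difference in Tert+/+ kidneys was -0.20 log2 (SE 0.49; limma adjusted p = 0.930). The interaction, the genotype difference in old mice minus that in young mice, was 2.42 log2 (SE 0.70), and it did not pass (limma adjusted p = 0.743), so the age effects in the 2 genotypes were not shown to differ.

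Between old mice, S100a9 averaged 57.3 ± 27.5 in G3 Tert-/- and 16.4 ± 5.83 in Tert+/+ kidneys (SD, n = 5 each). Of the old G3 Tert-/- mice, 4 of 5 lay above the highest old Tert+/+ mouse, and replicate 3, at 21.8, lay within their range. The ratio of means was 3.49 and the log2 fold change 1.66 (SE 0.49; limma adjusted p = 0.406). The adjusted p was 0.0414 with DESeq2, with a log2 fold change of 1.80, so this call depended on the tool. Between young mice, S100a9 averaged 12.3 ± 7.43 in G3 Tert-/- and 23.2 ± 19.7 in Tert+/+ kidneys, a log2 difference of -0.76 (SE 0.49; limma adjusted p = 0.542). It was -0.38 without young G3 Tert-/- replicate 2 and -0.37 without young Tert+/+ replicate 4.

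S100a8, its partner in calprotectin, followed the same order in old mice without passing the test. Counts were 61.3, 48.1, 22.9, 82.7 and 115 (normalized) in old G3 Tert-/- kidneys, against 19.7, 14.8, 30.2, 14.6 and 17.8 in old Tert+/+ kidneys. Again 4 of 5 old G3 Tert-/- mice lay above all old Tert+/+ mice, and replicate 3 lay among them. The ratio of means was 3.40 and the log2 fold change 1.58 (SE 0.58; limma adjusted p = 0.586).

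Young mice had 16.4, 9.79, 30.1, 19.1 and 20.4 normalized counts of S100a8 in G3 Tert-/- kidneys, against 15.7, 10.6, 1.96, 86.0 and 30.3 in Tert+/+ kidneys. The young Tert+/+ mice spanned both the lowest value of all 20 kidneys and a value above 4 of the 5 old G3 Tert-/- mice. The age difference in G3 Tert-/- kidneys was 1.63 log2 (SE 0.58; limma adjusted p = 0.166), and in a fit of those 2 groups alone it passed (limma adjusted p = 0.0233). In Tert+/+ kidneys the age difference was 0.19 log2 (SE 0.58; limma adjusted p = 0.944), with a ratio of means of 0.672. The interaction was 1.44 log2 (SE 0.82) and did not pass (limma adjusted p = 0.814), so the age effects in the 2 genotypes were not shown to differ. The genotype difference in young mice was 0.14 log2 (SE 0.58), while the ratio of means was 0.662, so its direction depended on the scale, and edgeR gave -0.60 log2.

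**Figure D1:**
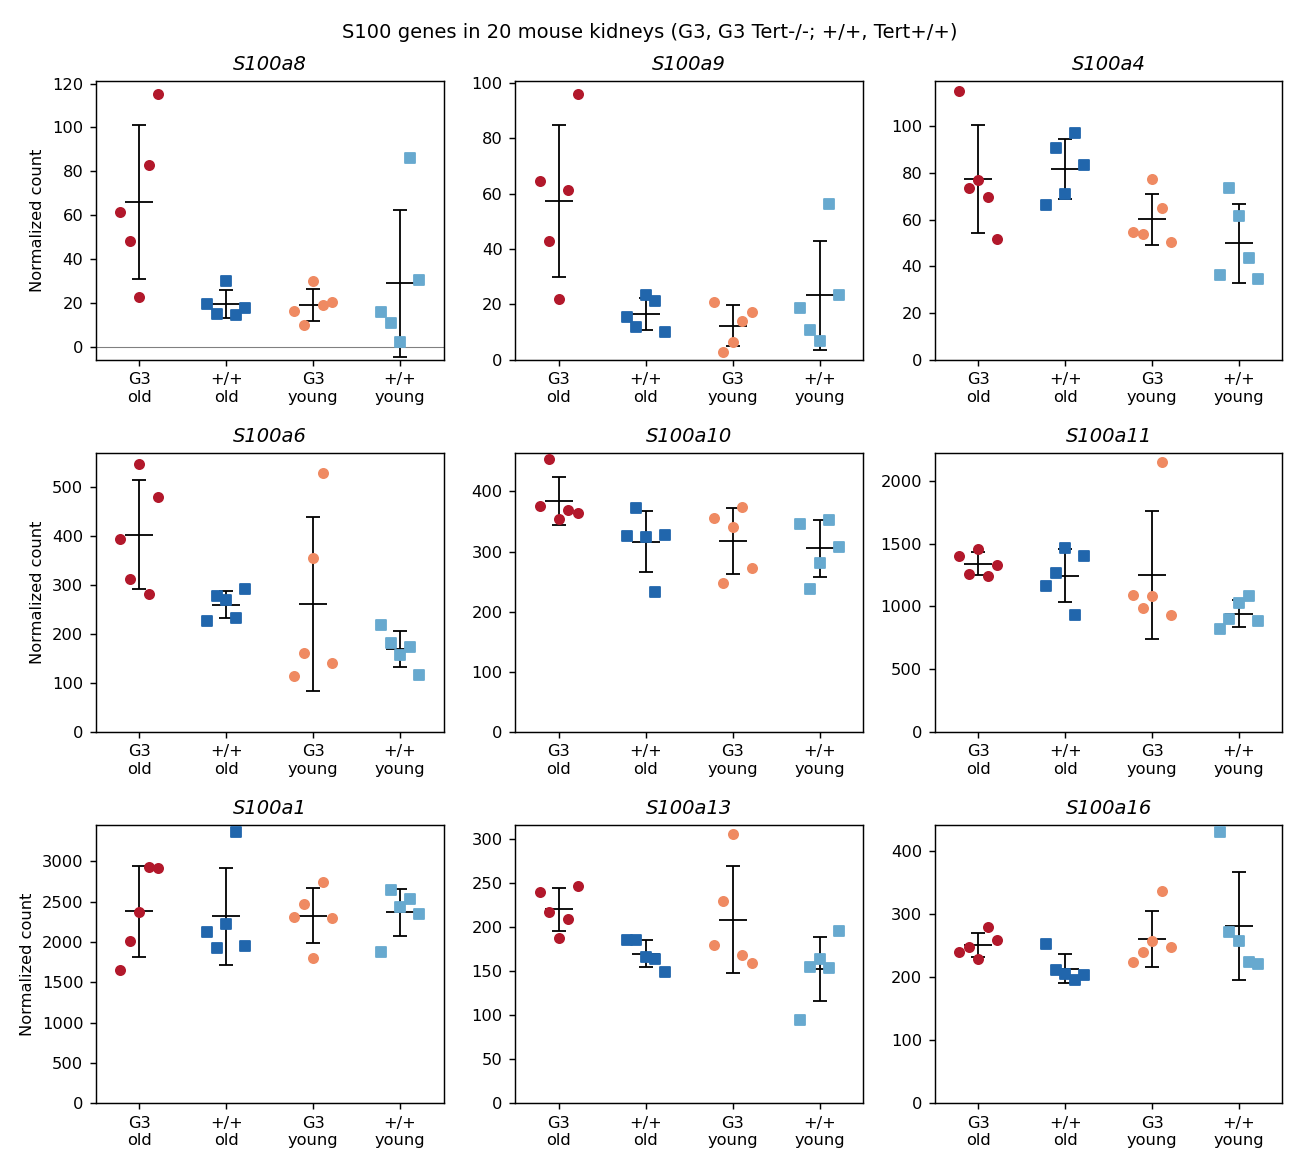
Normalized counts of the 9 S100 genes (vertical axis, a scale of its own in each panel) in each of 20 kidneys by group (horizontal axis), with the mean and SD of 5 mice in black. S100a8 and S100a9 reach 115 and 96.0 in old G3 Tert-/- kidneys, and their other high values, 86.0 and 56.4, are from 1 young Tert+/+ mouse.

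Across the 20 kidneys S100a8 and S100a9 moved together, with Pearson r = 0.83 and Spearman rho = 0.80 of log2(normalized count + 1). Leaving out the 5 old G3 Tert-/- mice gave r = 0.66 over 15 kidneys, and r was 0.78 with the group means removed. These values share library, scaling and low read numbers, so they are given as a description. Both genes were highest in old G3 Tert-/- replicate 5, and both were low in replicate 3 of the same group.

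**Figure D2:**
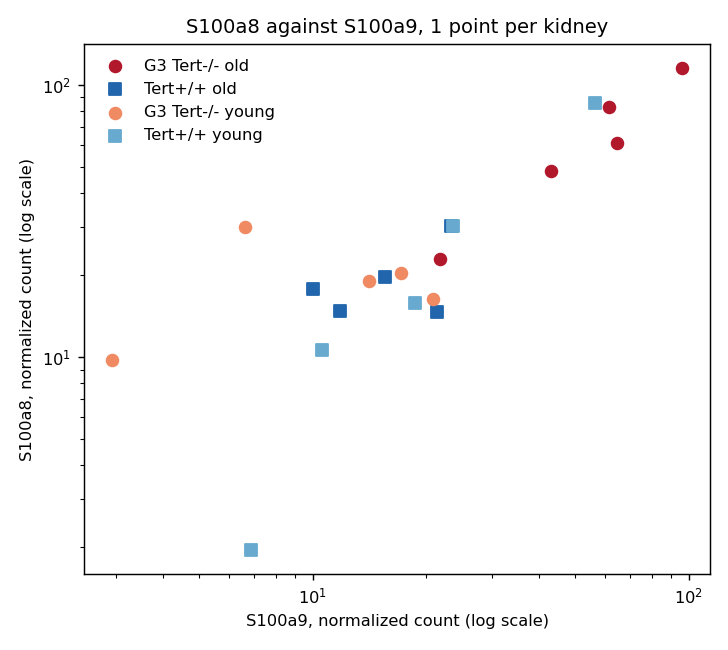
S100a8 (vertical axis) against S100a9 (horizontal axis), normalized counts on log scales, with 1 point per kidney and colours for the 4 groups. The points follow a rising line (r = 0.83, 20 kidneys), with 4 old G3 Tert-/- kidneys and 1 young Tert+/+ kidney at its upper end.

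Since S100a8 and S100a9 mark neutrophils, other neutrophil genes were read beside them. Of 19 listed genes, 9 were in the table and 2 passed the filter, Csf3r and Cxcr2, receptors for a growth factor and for chemokines. Neither passed limma's test in any comparison, and Cxcr2 had an unadjusted p under 0.05 in 1, genotype in young mice, as did 10.7% of all genes. Csf3r averaged 18.5 ± 4.14 in old G3 Tert-/- and 15.8 ± 4.24 in old Tert+/+ kidneys, and Cxcr2 averaged 20.6 ± 3.58 and 21.9 ± 4.10 in those groups (SD, n = 5 each). Retnlg, which encodes a resistin-like protein of neutrophils, was near the floor of 3 reads but was read at 7.39, 2.05, 2.08, 5.11 and 21.2 in old G3 Tert-/- kidneys, against 0, 1.97, 1.95, 3.38 and 1.11 in old Tert+/+ kidneys. The mouse with the most S100a8 and S100a9 also had the most Retnlg. In young Tert+/+ kidneys Retnlg was 0.984, 0, 0, 5.55 and 1.68, highest in replicate 4, which had the most S100a8 and S100a9 of its group.

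The other 6 neutrophil genes were low in all groups. Lcn2, which injured tubules also make, averaged 8.65 ± 5.04 in old G3 Tert-/- and 6.13 ± 3.15 in old Tert+/+ kidneys, and Mmp9, a gelatinase, averaged 8.27 ± 5.02 and 3.26 ± 2.04 in those groups. Ltf, Mmp8 and Chil3 did not exceed 4.09 in any kidney, and Wfdc21 reached 30.4 in old Tert+/+ replicate 4, a library that stood apart. The sum of the 9 genes was 55.1 to 82.8 in old G3 Tert-/- kidneys, 44.6 to 75.5 in old Tert+/+ kidneys, 54.8 to 70.6 in young G3 Tert-/- kidneys and 36.4 to 69.3 in young Tert+/+ kidneys. Those ranges overlap, and the 75.5 was in old Tert+/+ replicate 4. S100a8 had r = 0.70 and rho = 0.54 with this sum over 20 kidneys, and S100a9 had r = 0.49 and rho = 0.48. Over 18 kidneys without the 2 libraries that stood apart, r was 0.81 for S100a8 and 0.56 for S100a9. With the group means removed it was 0.68 and 0.56. The other 10 listed genes, Ly6g, Elane, Mpo, Camp, Ngp, Prtn3, Ctsg, Cebpe, Padi4 and Stfa2l1, were not in the table under these names and could not be analysed. The part of neutrophil number in the S100a8 and S100a9 levels was not tested.

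Tlr4 and Ager, which encode receptors of calprotectin, were read at low counts. Tlr4 averaged 9.06 ± 4.87 in old G3 Tert-/- and 5.97 ± 2.55 in old Tert+/+ kidneys (SD, n = 5 each) and was below the filter. Ager averaged 14.8 ± 3.37 in old G3 Tert-/- and 17.4 ± 5.997 in old Tert+/+ kidneys, and 16.1 ± 4.36 in young G3 Tert-/- and 9.47 ± 8.56 in young Tert+/+ kidneys. It passed in no comparison, the smallest limma adjusted p being 0.270 for age in Tert+/+ kidneys. Of the 24 listed partners and receptors of S100 proteins, 23 were in the table and 20 were tested.

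In age within G3 Tert-/- kidneys 1 of the 20 rose and 1 fell, where 2.24% of all genes passed, with a median log2 fold change of 0.06. There 5 of the 20 had an unadjusted p under 0.05, as did 14.9% of all genes (limma). In the other comparisons and the interaction none passed, and 1 to 4 had an unadjusted p under 0.05, where 6.22% to 10.7% of all genes had one (limma). Alcam, a cell adhesion molecule reported to bind S100 proteins, rose in old G3 Tert-/- kidneys to 430.0 to 483 in all 5 mice, against 252 to 382 in young ones. Its log2 fold change was 0.51 (SE 0.10; limma adjusted p = 0.00717), and the groups did not overlap. Cd36, a scavenger receptor that takes up fatty acids and binds calprotectin carrying them, fell: it averaged 1022 ± 251 in old and 1590.0 ± 356 in young G3 Tert-/- kidneys, a log2 change of -0.64 (SE 0.16; limma adjusted p = 0.0385). Their age differences in Tert+/+ kidneys were 0.22 log2 for Alcam, again without overlap of the groups, and -0.45 log2 for Cd36 (limma adjusted p = 0.458 and 0.283). Neither interaction passed.

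S100a4 was higher in old than in young Tert+/+ kidneys in most mice, without passing the test. Old Tert+/+ kidneys held 66.3, 90.6, 71.1, 96.8 and 83.5 normalized counts, against 36.4, 73.3, 61.6, 43.4 and 34.5 in young Tert+/+ kidneys. Only young replicate 2 reached into the old range. The ratio of means was 1.64 and the log2 fold change 0.75 (SE 0.21; limma adjusted p = 0.129). The adjusted p fell below the threshold, to 0.0415, without young replicate 2, and was 0.0494 with libraries weighted by their spread.

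In G3 Tert-/- kidneys S100a4 was read at 115, 73.7, 76.9, 69.4 and 51.5 in old mice, against 54.5, 53.8, 77.2, 64.8 and 50.4 in young mice. These ranges overlapped, with a log2 fold change of 0.33 (SE 0.21; limma adjusted p = 0.511), which was 0.17 without old replicate 1 (adjusted p = 0.732). Between genotypes S100a4 differed by -0.11 log2 in old and 0.31 log2 in young mice (SE 0.21 each), and neither passed. In the annotation S100a4 overlaps Gm42674 on the same strand, so reads from the shared stretch cannot be assigned to either with certainty.

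S100a4 was set beside the summed counts of listed fibroblast and leukocyte genes. Of 12 fibroblast genes, 2 fell with age in each genotype, Col1a1 and Col3a1, which encode fibrillar collagens. Of all genes, 2.24% passed with age in G3 Tert-/- and 0.649% in Tert+/+ kidneys. In all, 9 of 12 fibroblast genes had a negative age difference in G3 Tert-/- and 10 of 12 in Tert+/+ kidneys. Of the 12, 4 and 5 had an unadjusted p under 0.05, where 14.9% and 10.6% of all genes had one (limma). The log2 change of Col1a1 was -1.80 in G3 Tert-/- and -1.17 in Tert+/+ kidneys (limma adjusted p = 2.07e-06 and 0.00137). Over 20 kidneys S100a4 had r = -0.32 (rho = -0.43) with the summed fibroblast genes, r = 0.73 (rho = 0.65) with the sum of 16 macrophage and monocyte genes and r = 0.72 (rho = 0.62) with the sum of 9 B and plasma cell genes. With group means removed r was 0.37 with fibroblast, 0.64 with macrophage and 0.42 with B and plasma cell genes. The most abundant genes weigh most in these sums. Csf1r averaged 602 over all kidneys, the most of the macrophage genes, and Igkc and Igha averaged 1365 and 742, the most of the B and plasma cell genes. The relation of S100a4 to each sum without its most abundant genes was not tested. Old G3 Tert-/- replicate 1 had the most S100a4, macrophage RNA (2041) and B and plasma cell RNA (9624) of the 20 kidneys.

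The macrophage sum was 1361 to 2041 in old G3 Tert-/- kidneys, 1329.5 to 1802 in old Tert+/+ kidneys, 1180.1 to 1498 in young G3 Tert-/- kidneys and 952 to 1852 in young Tert+/+ kidneys. All 16 genes were tested, and 16 of 16 had a positive age difference in G3 Tert-/- and 13 of 16 in Tert+/+ kidneys. None passed (limma), and 4 and 3 had an unadjusted p under 0.05, where 14.9% and 10.6% of all genes had one. The B and plasma cell sum was 412 to 9624 in old G3 Tert-/- kidneys, 2973 to 9394 in old Tert+/+ kidneys, 282 to 939 in young G3 Tert-/- kidneys and 92.6 to 609 in young Tert+/+ kidneys. Old and young overlapped in G3 Tert-/- mice and did not in Tert+/+ mice. Of the 6 tested genes 0 passed as higher with age in G3 Tert-/- and 3 in Tert+/+ kidneys, where 2.24% and 0.649% of all genes passed in either direction (limma). All 6 had a positive age difference in both genotypes, with medians of 1.54 log2 in G3 Tert-/- and 3.33 log2 in Tert+/+ kidneys. Of the 6, 4 and 5 had an unadjusted p under 0.05, where 14.9% and 10.6% of all genes had one (limma). None of the 6 passed in the interaction. The part of leukocyte number in the S100a4 level was not tested.

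S100a6, or calcyclin, binds the calcyclin-binding protein and is made by many epithelia. It was read at 393, 311, 546, 282 and 479.9 normalized counts in old G3 Tert-/- kidneys, against 114, 161, 354, 529 and 140.4 in young ones. Most old G3 Tert-/- mice were above most young ones, but young replicates 3 and 4 lay as high as the old mice. The log2 fold change was 0.84 (SE 0.30; limma adjusted p = 0.166), and it passed, at 1.16 log2 with an adjusted p of 0.0173, without young G3 Tert-/- replicate 4.

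In Tert+/+ kidneys S100a6 was 227, 277, 269, 233 and 290.4 in old mice, against 217, 181, 156, 173 and 116 in young mice. Every old mouse was above every young mouse, though the gap between 227 and 217 was small, at 219 and 221 reads. The 217 was in young replicate 1, a library that stood apart. The log2 fold change of 0.64 (SE 0.30) did not pass (limma adjusted p = 0.441). Between old mice, S100a6 averaged 402 ± 111 in G3 Tert-/- and 259 ± 27.8 in Tert+/+ kidneys (SD, n = 5 each), a difference of 0.59 log2 (SE 0.30; limma adjusted p = 0.772). The spread of S100a6 was widest in young G3 Tert-/- kidneys, with a CV of 68.4%, against 21.98% in young Tert+/+ kidneys.

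The level of S100a6 ran with genes of the urothelium, the lining of the renal pelvis, across all groups. Summed counts of 5 uroplakin genes, which encode the plaque proteins of the urothelial surface, were 117, 98.2, 138, 103 and 289 in old G3 Tert-/- kidneys, against 12.7, 18.6, 190.3, 206 and 23.6 in young ones. The young G3 Tert-/- mice with high S100a6, replicates 3 and 4, were those with high uroplakin counts. In Tert+/+ kidneys the sums were 34.2, 102, 72.1, 99.1 and 136 in old mice, against 99.4, 16.4, 32.3, 52.7 and 15.99 in young mice.

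Over 20 kidneys S100a6 had r = 0.90 and rho = 0.92 with the uroplakin sum, and r = 0.86 without the 2 kidneys farthest from its median. It was r = 0.92 over 18 kidneys without the 2 libraries that stood apart, and r = 0.86 with the group means removed. Of the other members S100a11 had r = 0.61, S100a10 r = 0.53 and S100a8 r = 0.44, and the remaining 5 had r between -0.08 and 0.40. The 3 genes most like S100a6 among 10985 genes were Sprr1a (r = 0.88), Upk3a (r = 0.87) and Psca (r = 0.86), all on the urothelial list. That list was drawn up with earlier results of these data known, so their place on it is a description only. Of the 12 urothelial genes tested, 12 of 12 had a positive age difference in G3 Tert-/- kidneys (median 1.68 log2) and 11 of 12 in Tert+/+ kidneys (median 1.37 log2). None passed, and 9 and 5 had an unadjusted p under 0.05, where 14.9% and 10.6% of all genes had one (limma). How much urothelium each sample held was not measured apart from these genes, and its part in the S100a6 level was not tested.

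**Figure D3:**
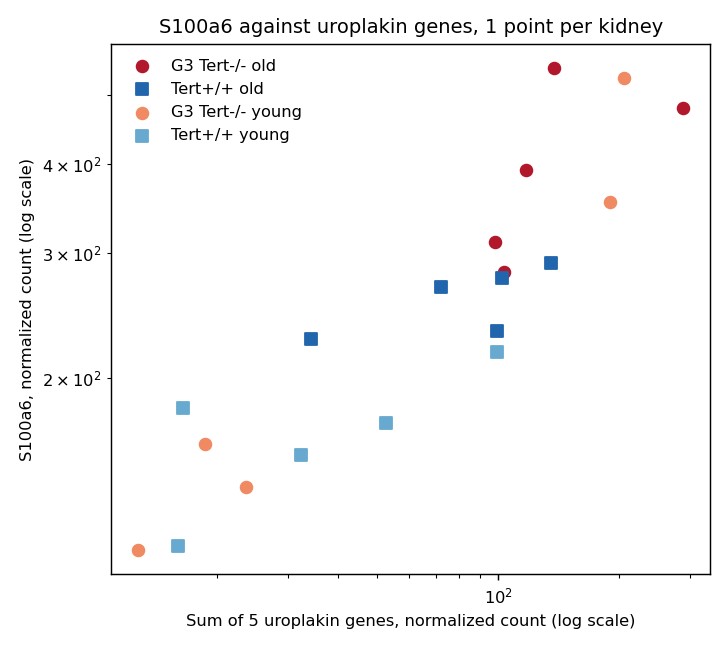
S100a6 (vertical axis) against the sum of 5 uroplakin genes (horizontal axis), normalized counts on log scales, with 1 point per kidney and colours for the 4 groups. The kidneys lie along 1 rising band (r = 0.90), on which the young G3 Tert-/- mice split between both ends.

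S100a10 and S100a11 bind annexins: S100a10 holds its calcium-like shape without calcium and pairs with annexin A2, and S100a11 binds annexin A1. S100a10 was read at 376, 453, 354, 369.7 and 364 in old G3 Tert-/- kidneys, against 326, 372, 324, 232 and 328 in old Tert+/+ kidneys. Of the old G3 Tert-/- mice 3 fell inside the old Tert+/+ range and 2 above it, and the log2 difference was 0.29 (SE 0.14; limma adjusted p = 0.767), or 0.18 without old Tert+/+ replicate 4. Its age difference in G3 Tert-/- kidneys was 0.28 log2 (SE 0.14; limma adjusted p = 0.351). Anxa2, its partner, averaged 294 ± 26.9 in old G3 Tert-/- and 289.6 ± 46.0 in old Tert+/+ kidneys, and Ahnak, a scaffold bound by the S100a10 and annexin A2 complex, averaged 591 ± 84.4 and 564 ± 61.6 there (SD, n = 5 each). Neither passed in any comparison.

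S100a11 was read at 1405, 1261, 1458, 1244 and 1329 in old G3 Tert-/- kidneys, against 1090.0, 984, 1086, 2154 and 927 in young ones. Young replicate 4, at 2154, was the highest of all 20 kidneys, while the other 4 young G3 Tert-/- mice lay below all old ones. The log2 difference was 0.17 (SE 0.17; limma adjusted p = 0.696), and it was 0.39 without that mouse (adjusted p = 0.102). In Tert+/+ kidneys S100a11 averaged 1245 ± 212 in old and 941 ± 109 in young mice, a log2 difference of 0.39 (SE 0.17; limma adjusted p = 0.393). The same young G3 Tert-/- mouse also had 529 of S100a6, and across 20 kidneys S100a6 and S100a11 had r = 0.75.

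S100a13 helps fibroblast growth factor 1 and interleukin 1 alpha leave the cell by a route without a signal peptide. It was read at 239.8, 217, 187, 208 and 247 in old G3 Tert-/- kidneys, against 185, 185, 166, 163 and 149 in old Tert+/+ kidneys. The groups did not overlap, though the gap between 187 and 185 was small, and the log2 difference of 0.37 (SE 0.17) did not pass (limma adjusted p = 0.756). In young mice it was 179.9, 229, 305, 169 and 159 in G3 Tert-/- kidneys, against 94.5, 154, 163, 153 and 195 in Tert+/+ kidneys. Those groups overlapped, with a log2 difference of 0.44 (SE 0.17; limma adjusted p = 0.435). It was 0.28 without young Tert+/+ replicate 1 and 0.30 without young G3 Tert-/- replicate 3 (limma adjusted p = 0.781 and 0.686).

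The interaction of S100a13 was -0.08 log2 (SE 0.25; limma adjusted p = 0.968). With age it differed by 0.11 log2 in G3 Tert-/- and 0.19 log2 in Tert+/+ kidneys (SE 0.17 each), and neither passed. Its lowest value, 94.5, was in young Tert+/+ replicate 1, the library with the highest proximal tubule sum, 441408. Over 20 kidneys S100a13 had r = -0.73 with that sum, and r = -0.51 over 18 kidneys without the 2 libraries that stood apart. Kap, a gene of the proximal tubule that responds to androgens, made up 72.7% of the sum. With the other 9 genes summed, r was -0.34 over 20 and -0.052 over 18 kidneys, so the relation rested on Kap (r = -0.75). Fgf1, whose product S100a13 carries, passed in no comparison.

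S100a1, best known in heart muscle, where it acts on calcium release and uptake, showed the smallest differences of the 9 genes. It was read at 1655, 2017, 2374, 2933 and 2921 in old G3 Tert-/- kidneys, against 2129, 1925, 2223, 3369 and 1954 in old Tert+/+ kidneys. Young kidneys held 2305, 2472, 1806, 2742 and 2296 in G3 Tert-/- mice, against 1878, 2643, 2435, 2531 and 2348 in Tert+/+ mice. All groups overlapped, and the 4 log2 differences lay between -0.05 and 0.04 (SE 0.16 each; limma adjusted p from 0.945 to 0.982). Although the starts of S100a1 and S100a13 share the window printed above, their levels had r = -0.06 over 20 kidneys.

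S100a16, a widely made member of the family, was read at 239.8, 249, 229, 279.8 and 259 in old G3 Tert-/- kidneys, against 253, 212, 204, 196 and 204 in old Tert+/+ kidneys. Young kidneys held 223, 239.8, 257, 337 and 249 in G3 Tert-/- mice, against 430.0, 272, 257, 225 and 221 in Tert+/+ mice. The groups overlapped, and the mean was lowest in old Tert+/+ mice, at 214 ± 22.6 (SD, n = 5). The age difference in Tert+/+ kidneys was -0.35 log2 (SE 0.15; limma adjusted p = 0.378), and -0.19 log2 without young Tert+/+ replicate 1 (adjusted p = 0.657). The genotype difference in old mice was 0.23 log2 (SE 0.15; limma adjusted p = 0.833). The highest value, 430.0, was again in young Tert+/+ replicate 1.

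**Figure D4:**
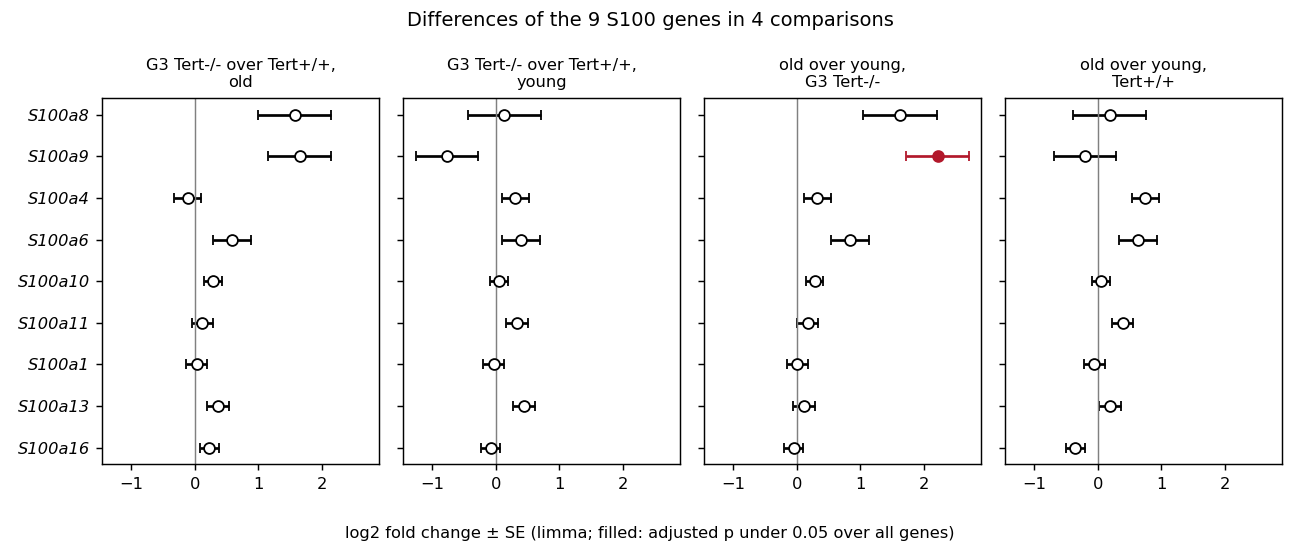
log2 fold changes (horizontal axis) with SE of the 9 S100 genes (rows) for G3 Tert-/- over Tert+/+ in old and in young mice and for old over young in G3 Tert-/- and in Tert+/+ kidneys, from limma over 14630 genes. The filled point, S100a9 with age in G3 Tert-/- kidneys at 2.22, is the 1 that passed, and the next highest are S100a9 at 1.66 and S100a8 at 1.58 for genotype in old mice and S100a8 at 1.63 with age in G3 Tert-/- kidneys.

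Counted over the 9 genes, S100a9 was the only call of limma in the 4 comparisons and the interaction. With age in G3 Tert-/- kidneys 1 of 9 passed, where 2.24% of all 14630 genes did, and 8 of 9 differences were positive with a median of 0.28 log2. With age in Tert+/+ kidneys 0 of 9 passed, where 0.649% of all genes did, and 6 of 9 were positive with a median of 0.19 log2. That median was the value of S100a8, whose direction was reversed with edgeR. By edgeR 5 of 9 were positive, with a median of 0.053 log2. At an unadjusted limma p under 0.05 the counts were 3 (S100a6, S100a8 and S100a9) and 4 (S100a4, S100a6, S100a11 and S100a16), the last of these lower with age, where 14.9% and 10.6% of all genes had one. By edgeR the counts that passed were 1 and 0, and by DESeq2 also 1 and 0.

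For genotype in old mice 0 of 9 passed, where 0.0957% of all genes did, and 8 of 9 differences were positive with a median of 0.29 log2. S100a8, S100a9 and S100a13 had an unadjusted p under 0.05, as did 6.58% of all genes, edgeR called 0 and DESeq2 called 1, S100a9. For genotype in young mice 0 of 9 passed, where 0% of all genes did, and 6 of 9 were positive with a median of 0.14 log2. This median too was the value of S100a8, whose direction was reversed with edgeR. By edgeR 5 of 9 were positive, with a median of 0.057 log2. By limma S100a13 alone had an unadjusted p under 0.05, as did 10.7% of all genes, and edgeR and DESeq2 called 0. For the interaction 0 of 9 passed, where 0.00684% of all genes did, S100a9 alone had an unadjusted p under 0.05, as did 6.22% of all genes, and edgeR and DESeq2 called 0.

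Groups did not overlap for 1 of 9 genes with genotype in old mice (S100a13), against 2.31% of all genes. They did not overlap for 0 of 9 with genotype in young mice (1.4% of all genes), for 1 of 9 with age in G3 Tert-/- kidneys (S100a9; 4.6%) and for 1 of 9 with age in Tert+/+ kidneys (S100a6; 2.53%). The gaps between the groups were small for S100a13, S100a9 and S100a6. The median log2 difference over all tested genes was at most 0.01 in each comparison. The genotype and age comparisons share groups of mice, so their counts are not independent.

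Pair by pair, most members did not move together. Of the 36 pairs, 7 had r above 0.5 over 20 kidneys, the median was 0.17 and the range -0.42 to 0.83. Besides S100a8 with S100a9 and S100a6 with S100a11, the annexin partners S100a10 and S100a11 had r = 0.57, S100a8 and S100a10 had 0.57, S100a9 and S100a10 had 0.54, S100a4 and S100a6 had 0.52, and S100a6 and S100a10 had 0.50. S100a1, S100a13 and S100a16 were in none of these pairs. With the group means removed r was 0.66 for S100a6 with S100a11 and 0.50 for S100a10 with S100a11. It was 0.36 for S100a8 with S100a10, 0.32 for S100a9 with S100a10, and 0.26 for S100a6 with both S100a4 and S100a10. S100a4, the member nearest to S100a6 in the cluster, had r = -0.03 with both S100a8 and S100a9.

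**Figure D5:**
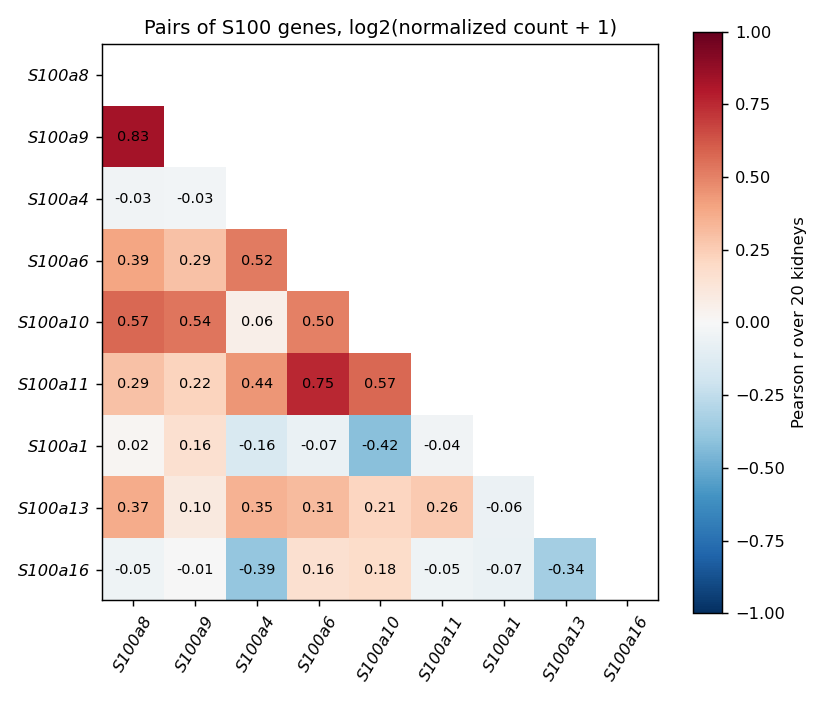
Pearson r of log2(normalized count + 1) over 20 kidneys for the 36 pairs of the 9 S100 genes (rows and columns), from blue (negative) to red (positive). S100a8 with S100a9 (0.83) and S100a6 with S100a11 (0.75) are the highest.

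For the other members, the genes most like them by Pearson r over 20 kidneys, among 10985 tested genes with a mean of at least 20 and a gene name beyond a Gm, Rik or other serial identifier, were as follows. Banp headed the list for S100a9 (r = 0.76, rho = 0.63), followed by Kdm2a (0.68) and Tox3 (0.66), and for S100a8 it was Cdk2ap2 (r = 0.74, rho = 0.77), Acnat2 (0.74) and Banp (0.71). For S100a4 it was Cand2 (r = 0.82, rho = 0.87), Qrsl1 and Akr1c13, and for S100a10 Ifit3b (r = 0.83, rho = 0.78), Kctd12 and Kcnj1. For S100a11 it was Slco4a1 (r = 0.88, rho = 0.88), the heat shock gene Hspa1b and Crcp, and for S100a1 Morn2 (r = 0.90, rho = 0.87), Uba1 and Tbc1d9b. S100a13 was most like Fam173a (r = 0.87, rho = 0.75), Mob3c and Eif4e3, and S100a16 most like Kxd1 (r = 0.83, rho = 0.61), Mrps24 and Arid1b, but r with Kxd1 was 0.58 over 18 kidneys without the 2 libraries that stood apart.

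5 further S100 genes were in the table. S100g encodes calbindin-D9k, which carries calcium through cells of the distal tubule, and it fell with age in G3 Tert-/- kidneys, while none of the 9 members fell in any comparison (limma). It was read at 7049.8, 7951, 7375, 5994 and 4629 in old G3 Tert-/- kidneys, against 12737, 17366, 11278, 12576 and 10002 in young ones. Every old mouse was below every young mouse, with a log2 change of -0.95 (SE 0.20; limma adjusted p = 0.00824). In Tert+/+ kidneys S100g averaged 8261 ± 1412 in old and 13105 ± 4816 in young mice (SD, n = 5 each), a log2 difference of -0.62 (SE 0.20; limma adjusted p = 0.190), and the interaction did not pass (adjusted p = 0.865).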

How the data were processed

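The table of normalized counts, a signal per gene and library, was deposited by the authors: reads divided by 1 size factor per library, judged from the table's name and values. In all 20 libraries 100% of values were whole multiples of 1 step (tolerance 1e-06), so whole reads were recovered for edgeR 4.0.16 and DESeq2 1.42.0. The submitters' processing notes name GRCm38, HTSeq 0.6.1, DESeq2, TopHat2 2.0.10, SAMtools 0.1.19, FastQC 0.11.7 and Bowtie 1.0.0, without roles. Per the labels' protocols, sense-strand QuantSeq 3′ libraries started from 300 ng of RNA, whose quality score averaged 6.6 (5.0 to 7.5), and counts do not compare levels between genes.

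limma 3.58.1 (R 4.3.3) was fitted with an intensity trend to log2(normalized count + 1), with 4 group means over all 20 libraries, on the 14630 genes with 10 or more in at least 5 libraries. Fold changes on this scale understate changes of low genes. An adjusted p under 0.05 passed, from two-sided tests adjusted by Benjamini-Hochberg over the 14630 genes. p-values measure the spread between mice, which exceeded counting error: the chi-square over its degrees of freedom was 3.59 to 86.6 over 40 pairs of libraries. A count of 0 allows up to 3 reads, for counting error only. The fit was tested on simulated data.

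Named genes were all members, other S100 genes in the table, the 3 genes most like each member, partners that passed with Anxa2, Ahnak, Ager and Tlr4, and neutrophil genes above 0 in at least 10 libraries. Other listed genes named, Col1a1, Kap and Fgf1 among them, were chosen after their values were seen. Members and lists were chosen with earlier results of these data known. Replicate numbers follow the order of the libraries and pair no mice. Alternatives were another pseudocount (0.5 or 5), no filter or a mean of at least 20, TMM scaling, edgeR, DESeq2, 2 groups per fit, libraries left out and, chosen after seeing the data, library weights.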

Additional observations from a re-analysis of the deposited data

Results flagged for a closer look

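Of 56 groups of 5 mice (14 S100 genes in 4 groups), 8 had a mouse far from the other 4, by a gap of more than 0.71 of the group's range. Chance flags about 1 group in 20 if values are normally distributed. That was not checked for these counts, some of which lie near the floor, so the number expected by chance is not known. Old Tert+/+ replicate 4, a library that stood apart, held 3369 of S100a1, against 1925 to 2223 in the other 4 mice, and 5.63 of S100a14, against 0.974 to 1.11. Young Tert+/+ replicate 1, the other such library, held 430.0 of S100a16, against 221 to 272. S100a16 was 253 in old Tert+/+ replicate 1, against 196 to 212. S100a10 was 453 in old G3 Tert-/- replicate 2, against 354 to 376. S100a11 was 2154 in young G3 Tert-/- replicate 4, against 927 to 1090.0, and that mouse also had the highest S100a6 of its group. S100b was 123 in old G3 Tert-/- replicate 5, against 3.06 to 35.9, and 17.8 in old Tert+/+ replicate 5, against 3.89 to 7.88.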

How the results depend on the processing

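No paired analysis was possible because replicate numbers follow the order of the libraries and no label ties mice across groups. Of 1341 member values under the alternatives, 1293 kept direction and side of the threshold, 40 reversed, 2 lost the call and 6 gained it. S100a9 with age in G3 Tert-/- kidneys kept its call under every alternative except the 2 libraries named above.

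Genes called for genotype in old mice were 14, against 50 with DESeq2, 6 with 2 groups per fit and 95 with library weights. For genotype in young mice they were 0, against 13 with DESeq2 and 1 with weights. For age in G3 Tert-/- they were 327, against 530 with DESeq2, 661 without both libraries that stood apart and 1007 with weights. For age in Tert+/+ they were 95, against 211 with DESeq2, 53 with 2 groups and 367 with weights. For the interaction they were 1, against 8 with DESeq2, 0 without both libraries and 2 with weights. Leaving out each library gave 2 to 19, 0 to 2, 192 to 497, 56 to 125 and 0 to 2 genes in these comparisons, and 0 to 0, 0 to 0, 0 to 2, 0 to 1 and 0 to 0 members.

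DESeq2 called 1 member for genotype in old mice (S100a9). For age in G3 Tert-/- 2 passed with 2 groups per fit (S100a8 and S100a9) and 2 with weights (S100a6 and S100a9), and for age in Tert+/+ 1 passed with weights (S100a4). The reversed values were all of differences that did not pass. S100a8 for genotype in young mice was -0.018 with a pseudocount of 5, -0.60 with edgeR, -0.60 with DESeq2 and -0.27 with weights. For age in Tert+/+ S100a8 was -0.57 with edgeR, -0.57 with DESeq2 and -0.032 with weights. S100a16 was 0.09007 for genotype in young mice without both libraries, and 0.051 for age in G3 Tert-/- with weights. The S100a13 interaction was 0.072 without both libraries and 0.011 with weights.

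Leaving out each library spanned 0 in 15 results. For genotype in old mice S100a1 ran from -0.048 to 0.18 and S100a4 from -0.27 to 0.021. For genotype in young mice S100a1 ran from -0.11 to 0.058, S100a8 from -0.50 to 0.72, S100a10 from -0.030 to 0.14 and S100a16 from -0.17 to 0.09007. For age in G3 Tert-/- S100a1 ran from -0.074 to 0.14 and S100a16 from -0.10 to 0.04998. For age in Tert+/+ S100a1 ran from -0.19 to 0.0073, S100a8 from -0.45 to 0.77, S100a9 from -0.52 to 0.20 and S100a10 from -0.034 to 0.16. For the interaction S100a1 ran from -0.022 to 0.21, S100a6 from -0.031 to 0.52 and S100a13 from -0.18 to 0.085. The cause of these changes was not tested. S100a8 and S100a9 were read at low counts, 1.96 to 115 and 2.94 to 96.0, which limits their precision.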

Other observations

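S100b, a member of the family made by Schwann cells, glia and fat cells, was low and uneven, at 35.9, 6.14, 7.27, 3.06 and 123 in old G3 Tert-/- kidneys, against 7.25, 3.94, 3.89, 7.88 and 17.8 in old Tert+/+ kidneys. In young mice it was 5.45, 1.96, 30.1, 7.47 and 12.9 in G3 Tert-/- kidneys, against 0.984, 7.72, 4.89, 10.2 and 9.26 in Tert+/+ kidneys. It passed in no comparison (limma adjusted p from 0.687 to 0.952). Over 20 kidneys S100b had r = 0.68 and rho = 0.69 with the sum of 6 adipocyte genes, which was 269 to 3676 in old G3 Tert-/- kidneys, 190.3 to 970.3 in old Tert+/+ kidneys, 277 to 9777 in young G3 Tert-/- kidneys and 169 to 3581 in young Tert+/+ kidneys. The part of adipocyte RNA in the S100b level was not tested.

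S100a3, S100a7a and S100a14 lay below the filter. Their highest values were 4.09 for S100a3 and 11.6 for S100a14, both in G3 Tert-/- kidneys, and 15.5 for S100a7a in old Tert+/+ replicate 1. No direction is drawn from these counts.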
